A study of Drosophila melanogaster with 4 samples.

Results

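The long right arm of chromosome 3, called 3R, was examined for regions enriched in chromatin immunoprecipitation followed by sequencing (ChIP-seq) with an antibody against POF. A region counted as a member when its sequence name was 3R and its midpoint lay above position 2000000, which leaves out the 2 Mb at the centromere side of the arm. This choice used position only. It gave 641 of the 3139 regions in the list of replicate 1, 611 of the 2853 regions in the list of replicate 2, and 2450 of the 11489 regions in a combined list that the authors made from the replicate set. The members lay in 25.9 Mb of sequence on FlyBase release 5, per the file headers.

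POF is an RNA-binding protein named for painting chromosome 4, the small autosome of Drosophila melanogaster. It is known to associate with nascent transcripts of active genes on that chromosome, where it works together with heterochromatin proteins and raises transcript output. 3R is an ordinary autosome arm, rich in active genes, and is not the chromosome that POF is known for.

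The samples all came from whole Oregon-R embryos, wild type in genotype and aged 14 to 16 h, so every cell type of the embryo was pooled. The antibody was MO 459, and the chromatin had been fixed with 1.8% formaldehyde. The series has 2 ChIP replicates and 2 input samples of total chromatin, each of which served as background for 1 ChIP replicate. The inputs are the only controls, so POF binding and nonspecific recovery at a given 3R region cannot be told apart. Whether the replicates were separate embryo collections is not stated in the labels, and their spread may be technical. The lists hold no read counts, and the depth behind a region is unknown. The authors gave each region 1 enrichment score, on a scale that the headers do not state, so scores are described and ranked only within a list. Genes and base sequences at these positions are not given here, because the gene table used here is on release 6.

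The most densely covered part of 3R was the 100 kb that begin at 12 Mb. Replicate 1 regions covered 26.7% of this window, replicate 2 regions 28.8% and combined regions 61.1%. The mean of the replicates was 27.8% ± 1.48 (SD, n = 2). It ranked 1 among the 259 whole 100-kb bins of 3R in each of the 3 lists, and the next bin had 19.0% in replicate 1, 17.9% in replicate 2 and 35.6% of combined coverage. The median 3R bin was 4.07% covered in replicate 1, 3.44% in replicate 2 and 14.9% by combined regions. Among the 1202 whole 100-kb bins of X, 2L, 2R, 3L, 3R and chromosome 4 it also ranked 1 in each list, and none of the 13 bins of chromosome 4 exceeded it. The most covered bin of chromosome 4 had 26.2% in replicate 1, 21.8% in replicate 2 and 37.5% of combined coverage. The lead over chromosome 4 was narrow in replicate 1, and it depends on where the bin edges fall. Shifted down or up by 50 kb, the window had a replicate mean of 15.2% or 19.3%, below both replicate values of chromosome 4. Its combined coverage was then 33.9% or 41.5%, and the bins of chromosome 4 were not shifted. The window had been singled out with its coverage known, so these ranks are a description and carry no test.

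Within this window both replicates showed the same row of regions. The proximal part held little in the replicate lists: replicate 1 had a single region there, from 12005460 to 12007257 with a score of 0.499, and replicate 2 had none. The row then began with a broad region, from 12030295 to 12035398 in replicate 1 (score 1.08) and from 12030290 to 12036452 in replicate 2 (score 0.933). At 5104 and 6163 bp, this region was among the widest of the arm in both lists. Its starts differed by a few bases only, while its ends did not match as closely.

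A pair of smaller regions followed. They ran from 12046304 to 12048114 and from 12049573 to 12051619 in replicate 1, and from 12046201 to 12047859 and from 12048771 to 12052502 in replicate 2. Their scores were modest, at 0.551 and 0.642 in replicate 1 and at 0.499 and 0.627 in replicate 2. Another region, from 12038069 to 12039666 with a score of 0.903, was found in replicate 1 and had no counterpart in replicate 2.

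The distal part was the core of the row. It opened with the region from 12059830 to 12063517 in replicate 1, whose score of 1.41 was the best in the window for that list, and from 12059810 to 12063462 in replicate 2, with a score of 1.02. Next came 12066081 to 12069417 at 0.839 in replicate 1 and 12066219 to 12069494 at 0.620 in replicate 2. The next stretch was divided differently in the 2 lists.

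Replicate 1 had 2 regions there, from 12073454 to 12076908 at 1.02 and from 12079302 to 12081647 at 0.698. Replicate 2 had 3 regions, from 12072338 to 12073996 at 0.524, from 12074570 to 12076859 at 1.24 and from 12076920 to 12081795 at 0.802. The last 2 of these were separated by 60 bp. The row ended with 12085721 to 12087258 in replicate 1 and 12085775 to 12087281 in replicate 2, at scores of 0.589 and 0.595. Beyond it, replicate 1 had no region for 43183 bp and replicate 2 none for 80000 bp. In all, 8 of the 10 regions of replicate 1 in the window had an overlapping region in replicate 2, and all 9 regions of replicate 2 had one in replicate 1. The bases in both lists made up 66.6% of the bases in either.

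The combined list joined and extended this row to 19 regions. Its widest member, from 12070171 to 12082995, was also the widest combined region of the whole 3R sequence at 12825 bp, with a score of 0.760, and it took in 2 replicate 1 regions and 3 replicate 2 regions. The gap between it and the region that followed, from 12083043 to 12087703, was 47 bp. Of the 19 regions, 6 overlapped both replicate lists, 2 overlapped replicate 1 alone and 11 overlapped neither. The 6 in both lists were the broad ones, from 4268 to 12825 bp, and included 12030250 to 12036503 at a score of 0.948, 12059539 to 12063806 at 1.05, 12064709 to 12069492 at 0.635 and 12046130 to 12052451 at 0.520. The 11 in neither were between 1021 and 2826 bp wide with scores between 0.386 and 0.510, and 5 of them stood in the proximal part where the replicates had 1 region between them.

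**Figure D1:**
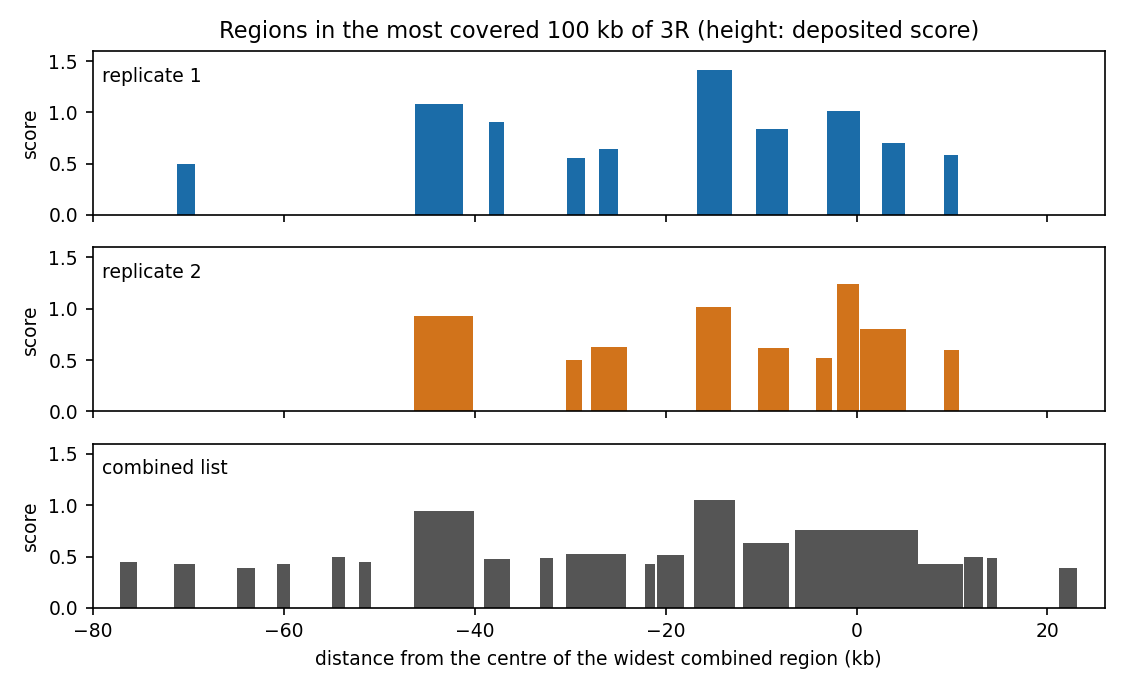
Regions in the 100-kb window at 12 Mb in replicate 1 (top), replicate 2 (middle) and the combined list (bottom). The horizontal axis is the distance in kb from the centre of the widest combined region, the width of a bar is the width of the region, and its height is the deposited score, which is comparable within a panel only. Of the 10 regions of replicate 1, 8 overlap a region of replicate 2, and all 9 of replicate 2 overlap one of replicate 1. Some of the 19 combined regions also lie in the stretch on the left, with gaps between them.

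The best scoring reproducible regions lay elsewhere on the arm. The leading one ran from 12976366 to 12978687, had a combined score of 1.98, and ranked 1 among the 3R regions in each replicate list, with scores of 1.98 in replicate 1 and 2.07 in replicate 2. It was a compact region of 2322 bp, and its replicate versions were 2252 and 2246 bp wide. The next, from 18575329 to 18577694, had a combined score of 1.80 and ranked 2 in both replicates, at 1.77 and 1.89.

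The third, from 25596627 to 25601488, was broader. It spanned 4862 bp in the combined list, 4784 bp in replicate 1 and 4786 bp in replicate 2. Its edges nearly coincided in the 2 replicates, but its rank differed. It scored 1.75 at rank 3 in replicate 1 and 1.41 at rank 11 in replicate 2. The region from 18942524 to 18945193 followed with a combined score of 1.501 and replicate scores of 1.45 and 1.61.

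The fifth of them, 11033773 to 11036512, had 1.355 as its combined score, beside 1.42 in replicate 1 and 1.43 in replicate 2. The region from 16646508 to 16650252, at 1.34, was 3591 bp wide in replicate 1 and 2446 bp wide in replicate 2, where it scored 1.39 and 1.68. The last of the 8 best were 10728232 to 10730948 at 1.33 and 18235530 to 18238328 at 1.31. Every one of the 8 stood among the 15 best 3R scores of both replicate lists. They were scattered over the middle and distal arm, and none of them lay in the window at 12 Mb, whose best score ranked 10 on 3R in replicate 1, 14 in replicate 2 and 31 among combined regions.

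The best scoring of the 5 widest combined regions ranked 55 among the 2450, and the widest of all, at 12825 bp, ranked 110. The class above 4000 bp had the highest median score of the width classes, at 0.621. After the 12825 bp region in that window, the widest combined regions were 27042573 to 27050833 with 8261 bp, 15727605 to 15734425 with 6821 bp, 9625542 to 9632332 with 6791 bp and 12046130 to 12052451 with 6322 bp. Their combined scores of 0.616, 0.766, 0.908 and 0.520 ranked 202, 108, 55 and 596 among the 2450. All 5 overlapped both replicate lists. The region that starts at 9625542 overlapped 1 replicate 1 region of 5793 bp with a score of 1.23, from 9626580 to 9632372, while replicate 2 divided it into 2 regions, of which the better scoring one was 2387 bp wide with a score of 0.778. On the whole arm 20 combined regions held 2 or more regions of at least 1 replicate list.

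Across the whole 3R sequence the 2 replicates covered nearly the same amount. Regions took up 1.24 Mb or 4.80% in replicate 1 and 1.18 Mb or 4.55% in replicate 2, at 24.7 and 23.6 regions per Mb. The combined list covered 4.10 Mb or 15.8%, at 94.6 regions per Mb. The median region was 1838 bp wide in replicate 1, where the middle 50% of widths lay between 1495 and 2136 bp. It was 1895 bp wide in replicate 2, with the middle 50% between 1509 and 2145.5 bp. Combined regions had a median of 1420 bp and a middle 50% between 1142 and 1951.75 bp. Regions of 4 kb or more were rare, with 7 in each replicate list and 46 in the combined list. The narrowest 3R regions were 1303 bp wide in replicate 1 and 1304 bp in replicate 2. In the combined list 978 regions, or 39.9%, were narrower than any region anywhere in either replicate list.

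At the limit of 2000000, the first replicate 1 region inside ran from 2098184 to 2099663 and the last one outside from 1981481 to 1983443. In replicate 2 these were 2077292 to 2078828 and 1931770 to 1933859. In the combined list the region from 1999561 to 2000821 lay inside and its neighbour from 1998374 to 1999519 outside, with scores of 0.431 and 0.487.

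3R was set beside X, 2L, 2R and 3L, each without the 2 Mb next to its centromere. Regions covered 4.68% ± 0.181 of 3R and 4.77% ± 0.398 of the other 4 arms (SD, n = 2 replicates). The difference was -0.253 percentage points in replicate 1 and 0.0550 in replicate 2, so it changed sign between the replicates (exact two-sided sign-flip permutation test, p = 1). Regions per Mb numbered 24.7 and 23.6 on 3R, against 26.7 and 23.8 on the other arms, a mean log2 ratio of -0.06 (exact sign-flip permutation test, p = 0.5). The smallest p that 2 replicates allow is 0.5, so none of these tests can pass a threshold of 0.05.

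Median widths were 1838 and 1895 bp on 3R, against 1792 and 1845.5 bp on the other arms, a difference of 47.75 ± 2.47 bp (SD, n = 2, exact sign-flip permutation test, p = 0.5). In the combined list the order turned round, with 1420 bp on 3R and 1454 bp on the other arms. Single arms lay on both sides of 3R. In replicate 1, 3R was 4.80% covered, X 5.40%, 2L 4.77%, 2R 6.00% and 3L 4.20%. In replicate 2, 3R was 4.55% covered, X 4.93%, 2L 4.28%, 2R 5.27% and 3L 3.65%. The order of the 5 arms was the same in both replicates, with 2R and X above 3R and 2L and 3L below it, and the gap between 3R and 2L in replicate 1 was smaller than the change of either arm between replicates.

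The replicates marked many of the same places on 3R. Among 641 regions of replicate 1, 370 overlapped one of replicate 2 by at least 1 bp, or 57.7% (95% Wilson interval 53.9 to 61.5), beside 55.3% over all sequences. Among 611 regions of replicate 2, 372 overlapped one of replicate 1, or 60.9% (57.0 to 64.7), beside 61.1% over all sequences. Both shares were near those of the whole lists. Against the other arms the share was higher by 3.70 percentage points in replicate 1 and lower in replicate 2, where the difference was -0.0474 (exact sign-flip permutation test over both, p = 1). The intervals cover counting error only. In bases, 0.712 Mb lay in both lists, which is 57.2% of the replicate 1 bases, 60.4% of the replicate 2 bases and 41.6% of the bases in either.

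Where a region was found in both lists, its edges were close. There were 356 cases in which 1 region of each list overlapped each other and nothing else. In these the starts differed by a median of 126 bp and the ends by 112.5 bp. Both edges agreed within 200 bp in 166 pairs, or 46.6%, and within 500 bp in 287, or 80.6%. The bases shared by a pair made up a median of 86.7% of the bases it spanned, and 18 pairs fell below 50%. Scores of the paired regions had a Spearman rho of 0.643 and a Pearson r of 0.781, and their widths a rho of 0.599, over 356 pairs that share their libraries.

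Agreement followed the width of a region. Among regions under 1500 bp, 39 of 163 in replicate 1 and 33 of 149 in replicate 2 were found in the other list, or 23.9% and 22.1%. The share was 46.4% and 51.8% from 1500 to under 2000 bp. It was 88.3% and 92.2% from 2000 to under 3000 bp. At 3000 bp and above, 31 of 32 replicate 1 regions and all 24 replicate 2 regions were shared. A wider region also has more room to overlap another one, and the part of this in the shares was not tested.

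Shared regions had a median width of 2052.5 bp in replicate 1 and 2071 bp in replicate 2, against 1516 and 1512 bp for regions of 1 list alone. Their median scores were 0.709 and 0.685, against 0.672 and 0.604. In both lists scores rose with width, with a Spearman rho of 0.535 over 641 regions in replicate 1 and 0.614 over 611 in replicate 2. Regions found in 1 list were not mainly near misses. Of the 271 in replicate 1, 26 lay within 1 kb of a replicate 2 region and 97 were more than 20 kb away, with a median distance of 11428 bp. Of the 239 in replicate 2, 23 were within 1 kb and 85 beyond 20 kb, with a median of 11603 bp.

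Coverage rose and fell together along the arm in the 2 replicates. Over the 259 whole 100-kb bins the Pearson r was 0.828 and the Spearman rho 0.802, given without a p because neighbouring bins are not independent. Without the 2 bins farthest from the median, r was 0.804 and rho 0.797. Bins with no region numbered 37 in replicate 1 and 32 in replicate 2, and 19 bins were empty in both. No bin was empty in the combined list, which covered at least 1.56% of each. The 19 bins that both replicates left empty were between 1.56% and 10.8% covered in the combined list, with a median of 6.28%, against a median of 15.1% in the other bins. The combined list came from the same samples, so this is not separate evidence.

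**Figure D2:**
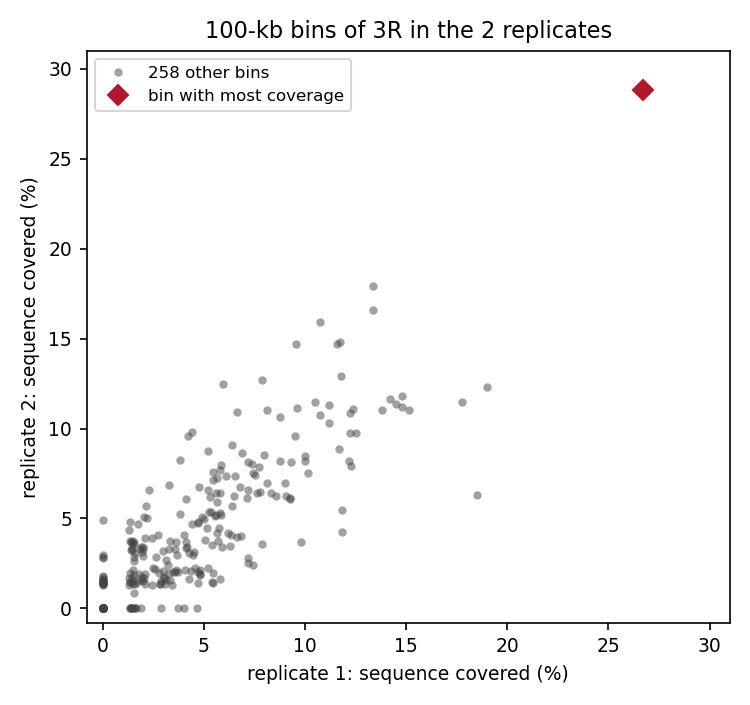
Covered sequence in each of the 259 whole 100-kb bins of 3R, with replicate 1 on the horizontal and replicate 2 on the vertical axis, both in percent of the bin. Each point is 1 bin. The diamond is the bin that begins at 12 Mb, at 26.7% and 28.8%, and no other bin exceeds 19.0% in replicate 1 or 17.9% in replicate 2.

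Apart from the window at 12 Mb, the most covered bins were not the same in the 2 replicates. The bin from 16900001 to 17000000 was 19.0% covered in replicate 1, where it ranked 2, and 12.3% in replicate 2, where it ranked 11. The bin from 20000001 to 20100000 was 18.5% covered in replicate 1, where it ranked 3, but 6.33% in replicate 2, where it ranked 72. In replicate 2 the runners-up were 4800001 to 4900000 at 17.9% and 11000001 to 11100000 at 16.6%, which ranked 11 and 12 in replicate 1 at 13.4% each. In the combined list they were 25500001 to 25600000 at 35.6% and again 4800001 to 4900000 at 34.6%.

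On a scale of 1 Mb the most covered stretch had 2.53 times the coverage of the least covered one in replicate 1, 2.43 times in replicate 2 and 2.19 times among combined regions. In replicate 1 the 25 whole 1-Mb stretches lay between 3.01% covered, from 15 to 16 Mb, and 7.62% covered, from 12 to 13 Mb, with a median of 4.88%. In replicate 2 they lay between 2.69%, from 3 to 4 Mb, and 6.54%, from 19 to 20 Mb, with a median of 4.29%. By combined coverage the least covered stretch was 21 to 22 Mb at 9.92% and the most covered 12 to 13 Mb at 21.8%. Grouped more coarsely, regions per Mb in replicate 1 and replicate 2 were 23.8 and 23.8 from 2 to 7 Mb, 23.6 and 25.2 from 7 to 12 Mb, 24.4 and 21.8 from 12 to 17 Mb, 28.2 and 24.2 from 17 to 22 Mb, and 23.9 and 23.0 from 22 Mb to the end. The share of replicate 1 regions found in replicate 2 in these 5 stretches was 63.9%, 62.7%, 54.1%, 54.6% and 54.6% in the same order. The share of replicate 2 regions found in replicate 1 was 64.7%, 58.7%, 61.5%, 64.5% and 55.9%. The order of the stretches thus differed between the 2 lists, and differences between stretches were not tested.

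**Figure D3:**
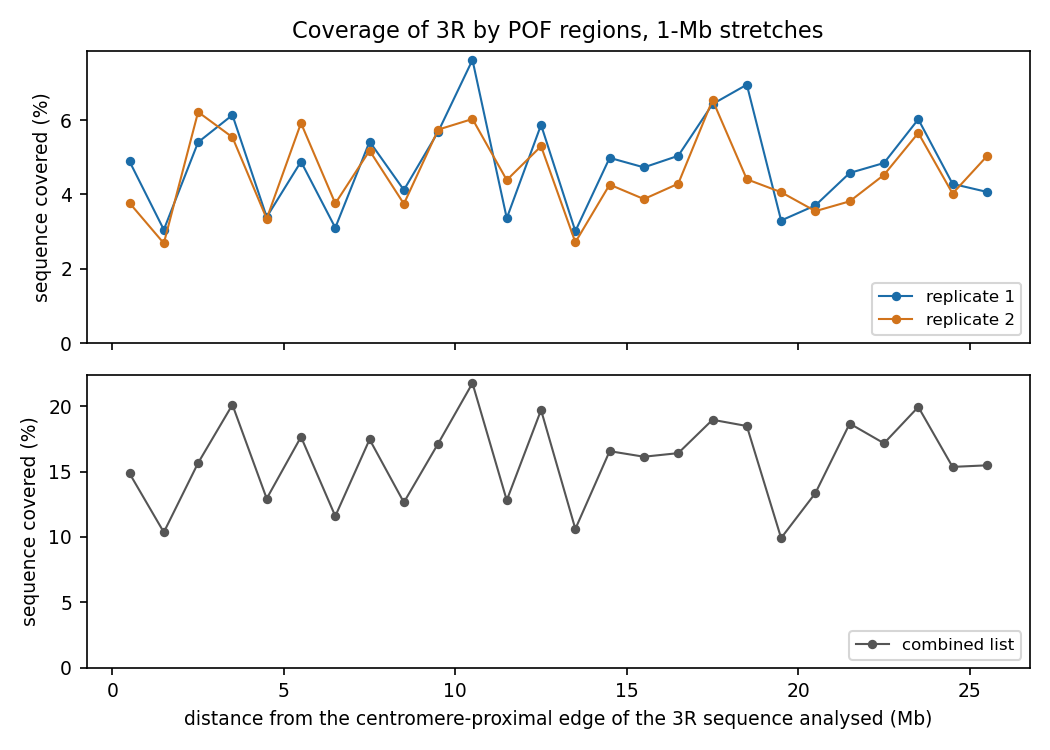
Sequence covered by POF regions in percent, in consecutive 1-Mb stretches of 3R, against the distance in Mb from the proximal edge of the sequence analysed. The upper panel shows replicate 1 and replicate 2, the lower panel the combined list, and the last point stands for 0.9 Mb. Replicate values stay between 2.69% and 7.62%, and the dips and peaks of the 2 lines mostly coincide.

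Regions were unevenly spaced on a finer scale. The median gap to the next region was 21279 bp in replicate 1 and 22275.5 bp in replicate 2, where the mean gap was 38337 and 40392 bp. Combined regions had a median gap of 5240 bp and a mean of 8899 bp. The mean was well above the median in all 3 lists, as short gaps were many and long ones few. Gaps under 1 kb made up 5.47% of gaps in replicate 1, 4.92% in replicate 2 and 15.1% among combined regions. Gaps of 100 kb or more numbered 55 in replicate 1, 61 in replicate 2 and 3 between combined regions, and in the replicates they took up 36.5% and 37.7% of the 3R sequence.

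**Figure D4:**
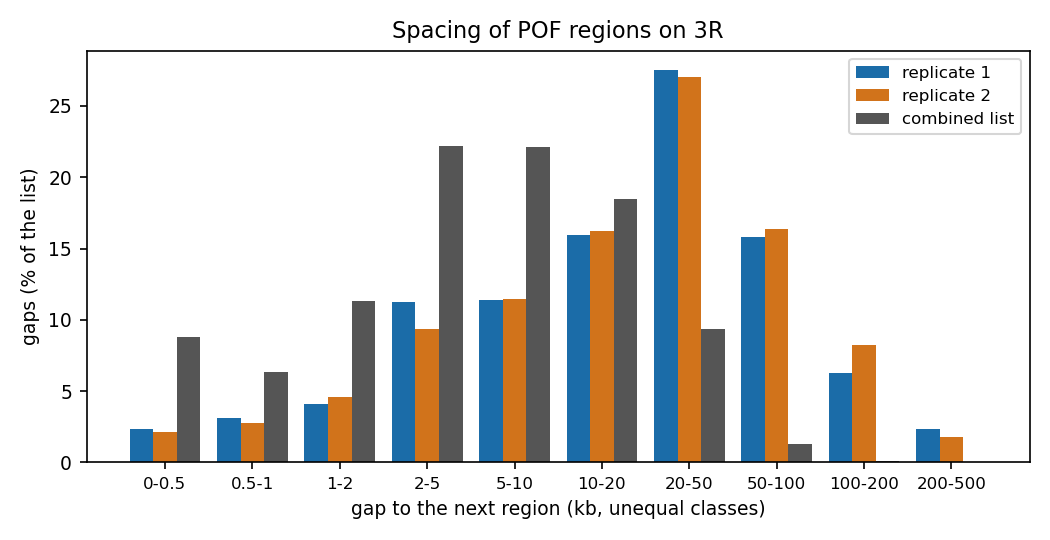
Gaps between neighbouring regions on 3R, in classes of gap length in kb of unequal size (horizontal) against the percent of all gaps of a list (vertical), for replicate 1, replicate 2 and the combined list. The 2 replicates have nearly the same profile, with the commonest class from 20 to 50 kb at 27.5% and 27.0%, while combined gaps are commonest from 2 to 5 kb at 22.2%.

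Clusters were defined as runs of at least 4 regions with gaps of at most 5 kb. Replicate 1 had 8 of them with 37 regions, or 5.77% of its 3R regions, and replicate 2 had 5 with 24 regions, or 3.93%. They spanned 11.5 to 27.4 kb in replicate 1 and 11.3 to 27.5 kb in replicate 2. Only 2 clusters were found in both replicates. The first was the core of the window at 12 Mb, from 12059830 to 12087258 with 5 regions in replicate 1 and from 12059810 to 12087281 with 6 in replicate 2, where regions covered 52.4% and 62.8%. The other lay near it, from 12256763 to 12268438 with 4 regions in replicate 1 and from 12257152 to 12268467 with 4 in replicate 2, covered by 53.4% and 70.5%.

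The remaining clusters belonged to 1 replicate by this definition, although the other replicate had regions in each. The largest in replicate 1, from 16922051 to 16944925 and from 23741073 to 23764975, had 6 regions each, where replicate 2 had 2 and 4. A cluster from 5602702 to 5620461 had 4 regions in replicate 1 and 3 in replicate 2. In replicate 2 the clusters from 4872604 to 4891729 and from 13525510 to 13544033 had 5 regions each, where replicate 1 had 2 and 3. The one from 19918238 to 19936085 had 4 regions in replicate 2 and 1 in replicate 1.

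Among combined regions 784, or 32.0%, stood in 144 clusters. In that list 48.7% of all gaps were at most 5 kb, against 20.8% in replicate 1 and 18.9% in replicate 2. Runs that meet the limit therefore arise more readily in it. Clustered shares were not computed for the other arms, so none of the 3 is read as a trait of 3R. The largest, from 11994637 to 12091321, held 19 regions over 96.7 kb and was 63.1% covered. The next, from 5565190 to 5635882, held 17 regions over 70.7 kb, with 7 replicate 1 and 5 replicate 2 regions in the same stretch. They were followed by 3 clusters of 11 regions, from 7034493 to 7070199, from 13501841 to 13544177 and from 19917832 to 19958815. All 8 replicate 1 clusters and all 5 replicate 2 clusters overlapped a combined cluster. This was largely fixed in advance, because the combined list came from the same samples. It overlapped 97.3% of replicate 1 regions and 98.5% of replicate 2 regions. Clustered regions were shared between the replicates in 23 of 37 cases in replicate 1, or 62.2%, against 57.5% of the other regions. In replicate 2 they were shared in 16 of 24 cases, or 66.7%, against 60.6%. These differences were not tested.

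Deserts, gaps of at least 200 kb in a replicate list, numbered 15 in replicate 1 with 3.91 Mb and 11 in replicate 2 with 3.01 Mb. The longest in replicate 1 ran from 11238027 to 11585017, 347 kb in which replicate 2 had 4 regions. The longest in replicate 2 ran from 15131692 to 15557363, 426 kb in which replicate 1 had 5 regions. Of the 15 deserts of replicate 1, 1 held no replicate 2 region, and of the 11 deserts of replicate 2, 2 held no replicate 1 region. Most of these deserts were thus interrupted in the other list, by a median of 2 regions each. Replicate 2 covered 1.17% of the replicate 1 deserts, against 4.55% of the whole 3R sequence analysed. Replicate 1 covered 0.928% of the replicate 2 deserts, against 4.80%. Each list was thus sparse in the deserts of the other, though seldom absent.

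Taking both replicate lists at once left 5 gaps of 200 kb or more. The longest was 277 kb, from 3301536 to 3578440, and its proximal edge was almost the same in both lists. The next were 272 kb from 8539648 to 8811211, with both edges at nearly the same places in the 2 lists, and 264 kb from 6761661 to 7025602. The combined list had 10, 8 and 14 regions in these 3 stretches and covered 4.01%, 3.38% and 6.76% of them, against 15.8% of the arm. In the combined list itself the longest gaps were 119888 bp from 4355744 to 4475631, 108845 bp from 21572206 to 21681050 and 100984 bp from 3415347 to 3516330. The last of these lay within the longest gap of the replicates, and only the edge of 1 replicate 1 region reached into the first.

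The combined list contained most of both replicate lists and much besides. It overlapped 624 replicate 1 regions, or 97.3%, and 602 replicate 2 regions, or 98.5%. These shares were not computed over all sequences, so whether they are particular to 3R is not known. The 17 and 9 that the combined list lacked were narrow, with median widths of 1431 and 1361 bp, and none of them was shared between the replicates. Both replicate lists were met by 365 of the 2450 combined regions, or 14.9% (95% Wilson interval 13.5 to 16.4), beside 14.9% over all sequences. Replicate 1 alone was overlapped by 252, replicate 2 alone by 223, and neither list by 1610, or 65.7% (63.8 to 67.6), beside 65.0% over all sequences. The 3R shares were near those of the whole list.

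The combined regions in both lists were the broad ones. Their median width was 2542 bp, against 1249 bp for regions in neither list, and they held 25.4% of the combined bases. Their median score was 0.612, against 0.465. No combined region of 1500 bp or less overlapped both replicate lists, and 42 of the 46 regions above 4000 bp did. Of the 497 combined regions of up to 1100 bp, 481, or 96.8%, overlapped neither list, a width that the replicate lists do not contain. Above 2000 and up to 3000 bp, 225 of 403 regions, or 55.8%, were in both lists and 64, or 15.9%, in neither. For combined regions, too, shares by width were not computed over all sequences.

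**Figure D5:**
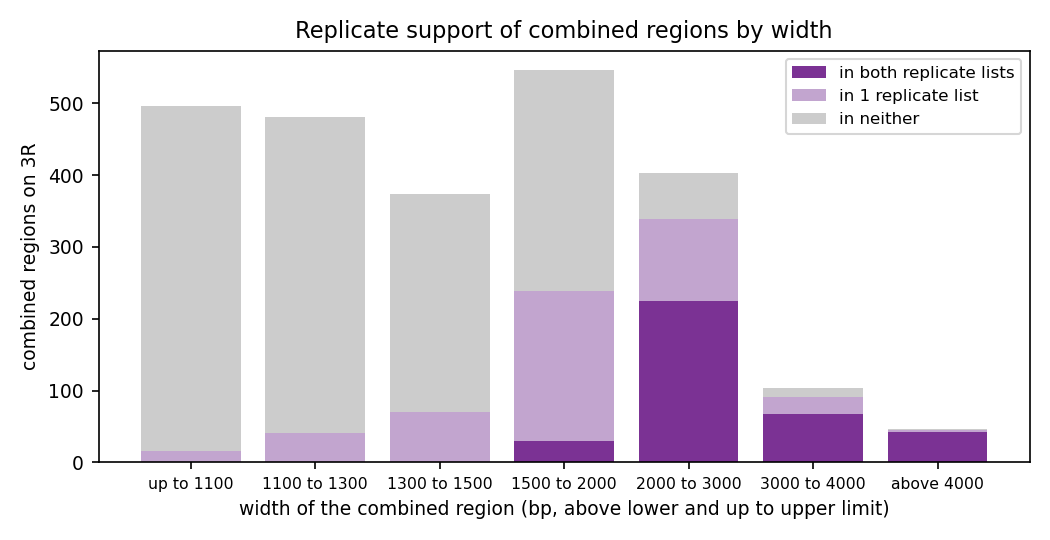
Number of combined 3R regions (vertical) by width class in bp (horizontal, above the lower and up to the upper limit), divided into those that overlap both replicate lists, 1 list, or neither. The bars up to 1500 bp hold no region in both lists, and of the 46 regions above 4000 bp 42 are in both.

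The top of the combined score order was of 2 kinds. Of the 38 combined 3R regions with a score of 1 or more, 32 overlapped both replicate lists and had widths above 2000 bp. The other 6 were at most 1017 bp wide and overlapped neither list. They included the 3 best scores of the arm, 2.55 from 12586810 to 12587810, 2.17 from 4533088 to 4534088 and 2.02 from 2242399 to 2243415. The remaining ones were 23555883 to 23556884 at 1.85, 6783654 to 6784655 at 1.69 and 8973542 to 8974542 at 1.352. The first of them lay 1091 bp from the nearest replicate 1 region and 1188 bp from the nearest replicate 2 region, and the last lay 63.0 and 32.5 kb away. This split of the top scores was not computed over all sequences, so whether it is particular to 3R is not known. Among regions in both lists the combined score rose with width, with a Spearman rho of 0.332 over 365 regions, and among regions in neither list it fell, with a rho of -0.420 over 1610. Whether few reads lie behind the narrow regions could not be measured, because the lists carry no counts.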

How the data were processed

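POF ChIP-seq of whole Oregon-R embryos gave 3 deposited lists of enriched regions, 1 for each of 2 ChIP replicates and 1 for the replicate set. The unit is a score per region, made by the authors from ChIP and input, and its scale is not stated in the file headers. Per the file headers, positions refer to FlyBase release 5. The submitters' processing notes name Bowtie 0.12.7. How regions were called, with what threshold, and how the replicate set was formed is not given in the sources used here. Widths began at 1301 bp in either replicate list but at 1001 bp in the list of the replicate set, which limits which regions can appear in which list. No depth was given, so precision cannot be derived from counts, and no input was analysed by itself.

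Groups and replicate numbers came from the sample titles. Overlap meant at least 1 bp, and a gap is the number of bases between neighbouring regions. Bins were 100 kb, counted from 2000000 upwards. Differences between 3R and other arms were tested over the 2 replicates by an exact sign-flip permutation test, two-sided. Values were computed in Python 3.11.15 with scipy 1.17.1, pandas 2.3.3 and numpy 2.4.6, plots were drawn with matplotlib 3.10.9, and the overlap, gap, cluster and coverage functions were tested on simulated data. Named regions were the 8 best combined scores in both replicate lists, the 5 widest combined regions, all regions in the 100-kb window at 12 Mb, the 5 largest clusters, 3 longest gaps and 3 most covered bins of each list. The clusters in both replicates, the 6 narrow regions with high scores, and the gaps of both replicate lists taken at once were picked after their values were seen. The members, the window and the definitions were chosen with earlier results of these data known. Alternatives were other overlap rules, bins, gap limits and widths, subsets by score, whole arms and single replicates.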

Additional observations from a re-analysis of the deposited data

How the results depend on the processing

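The difference in coverage between 3R and the other arms, -0.0989 percentage points, was 0.0524 with regions above 1500 bp only, 0.299 with whole arms, and from -0.253 to 0.0550 with 1 replicate left out. The log2 ratio of regions per Mb, -0.0617, was 0.0624 with whole arms. In the better scoring 50% of each list the coverage difference was -0.338 percentage points and the log2 ratio -0.271. Both were larger in size than the main values and kept their sign. Each subset was cut at the median score of its whole list. Median scores on 3R and on the other 4 arms together were 0.688 and 0.709 in replicate 1, and 0.635 and 0.664 in replicate 2. X alone had 0.803 and 0.737, while 2L, 2R and 3L lay between 0.632 and 0.685. How far these scores account for the change was not tested. The difference in replicate agreement, 1.82 percentage points, ranged from -0.0474 to 3.70 with 1 replicate left out, and the difference in median width, 47.75 bp, was -34 bp in the combined list. The share of combined 3R regions in both replicate lists, 14.9%, was 13.0% with reciprocal overlap of 50%, 18.9% with 500 bp extensions, 28.7% in the better scoring 50% of the list and 24.8% among regions at least as wide as the narrowest replicate region. The share in neither was 60.3% with extensions, 58.3% in the better scoring 50% and 46.8% at or above that width. The correlation of bins, 0.828, was 0.787 with 50-kb bins, 0.851 with 200-kb bins, 0.715 for numbers of regions and 0.804 without 2 bins. Clusters in replicate 1, replicate 2 and the combined list numbered 2, 1 and 43 with gaps of at most 2 kb, and 14, 16 and 230 with gaps of at most 10 kb. With the limit 1.5 times as long, deserts numbered 3, 2 and 0. Coverage of the window at 12 Mb, 27.8% as the mean of the replicates and 61.1% in the combined list, was 15.2% and 33.9% shifted down by 50 kb, 19.3% and 41.5% shifted up, and 17.1% and 41.9% in the better scoring 50%. Stricter limits and subsets leave fewer regions by construction, and the cause of the other changes was not tested. Without depths, whether a region that a list lacks was too weak to pass could not be tested. No paired analysis was possible because ChIP and input of a replicate enter 1 list together and no input was analysed by itself.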
